A study of Homo sapiens with 4 samples.

Results

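The genes examined here encode 10 surface antigens of B cell lymphoma that serve in diagnosis or as targets of antibodies and other drugs. They were taken by symbol from the table of 25277 gene symbols, and all 10 were found: MS4A1, CD22, CD37, CD38, CD52, CD5, CD24, CD27, CD70 and ROR1. Their RNA was measured in 4 cultures of Mino and Z138, established human lines derived from mantle cell lymphoma, a B cell cancer. Each line was a stable derivative carrying a doxycycline-inducible vector. One culture per line expressed a short hairpin against BTK (shBTK), the kinase downstream of the B cell receptor, and the other carried a control vector (sc4 control). All 4 cultures, controls included, had received doxycycline for 48 hours, and there was 1 library for each line and vector. What the control vector encodes, and whether a line was 1 clone, are not stated in the labels.

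Surface antigens mark the stages and tumours of the B lineage and give antibodies a handle on the cell. MS4A1 (CD20) is the target of rituximab, CD52 of alemtuzumab and CD38 of daratumumab, while CD22, CD37, CD70 and ROR1 are targets of antibodies, drug conjugates or engineered T cells. CD5 on B cells is a diagnostic feature of mantle cell lymphoma and of chronic lymphocytic leukaemia, in which CD23 (FCER2) helps to tell them apart. BTK passes the signal of the B cell receptor, on which CD22 and CD5 act as brakes. What follows concerns RNA levels, and no surface protein was measured here.

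Values are FPKM, fragments scaled to transcript length and sequencing depth. How they were computed is not stated, so comparisons of level between genes are rough. Read depth is unknown. The libraries summed to between 669013 and 740192 FPKM. BTK in the hairpin libraries was at 26.6% of its control level in Mino and 24.3% in Z138, which matched the labels. Of 10 B cell and mantle cell lymphoma markers, all were above 0 in every library, with summed levels of 3990 to 4483 FPKM in Mino and 4322 in both Z138 libraries. Most of each sum was CD74, at 3247 and 2750 FPKM in Mino and 2785 and 2786 in Z138, so the sums say little of the other markers. SOX11, a mantle cell lymphoma marker, lay between 19.8 and 23.7 FPKM in the 4 libraries. CCND1, the cyclin gene activated by translocation in most mantle cell lymphomas, was at 591 and 600.5 FPKM in Z138 but at 3.18 and 2.62 in the libraries labelled Mino. Mino is usually described as a line positive for cyclin D1, so this marker goes against the label. Every Mino value here, and every comparison of the lines, rests on the label. T cells also make CD5, CD27 and CD52. The 10 T cell markers summed to 2.71 to 6.53 FPKM in a library, and CD2 and CD8B were listed at 0 throughout. Above 1 FPKM were CD3G (2.71 and 2.48), CD3E (1.69 and 2.07) and CD7 (1.16 and 1.29) in Z138. In Mino CD8A was at 2.01 and 1.38, and the rest stayed below 1 FPKM. In Z138, CD3G and CD3E thus lay above CD5 and CD27.

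In Mino the highest of the 10 antigens was CD37, and in Z138 it was CD70. Between control and hairpin, CD70 and CD22 swapped places in the Mino order, and MS4A1 and CD52, and CD24 and CD22, did so in the Z138 order. CD37, a tetraspanin of mature B cells, was at 769 FPKM (control) and 560 FPKM (hairpin) in Mino, against 45.4 and 37.6 FPKM in Z138. CD22, a sialic acid-binding inhibitory co-receptor, was at 107 and 102 FPKM in Mino against 3.34 and 5.96 in Z138. Both Mino libraries thus lay well above both Z138 libraries for CD37 and CD22. MS4A1 ran the other way, at 47.8 and 43.5 FPKM in Mino against 84.7 and 113 in Z138. CD37 RNA was 16.1 (control) and 12.9 (hairpin) times the MS4A1 level in Mino, against 0.535 and 0.332 times in Z138.

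**Figure D1:**
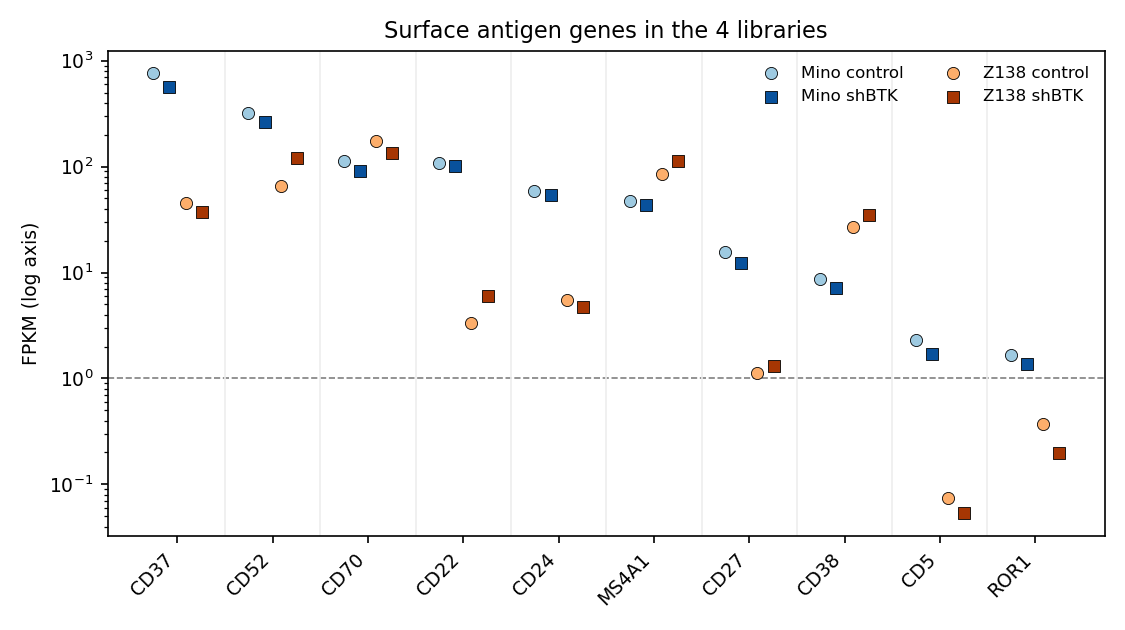
FPKM of the 10 surface antigen genes on a log axis in the 4 libraries, 1 point per library, ordered by the Mino control; the dashed line marks 1 FPKM. CD37, CD22, CD24, CD27, CD5, CD52 and ROR1 were higher in both Mino libraries, and MS4A1, CD38 and CD70 in both Z138 libraries.

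The first comparison asked how BTK knockdown moved the antigens in both lines. None of the 9 antigens that could be tested changed in the same way in both lines beyond the error, and ROR1, at a mean of 0.897 FPKM, fell below the filter of 1 FPKM. The test was limma on log2(FPKM + 1), with line and hairpin as terms and Benjamini-Hochberg adjustment over 11484 symbols. With 1 residual degree of freedom for each gene, the lines' disagreement supplies the error, and cultures of a line were not replicated. Over all symbols 0.122% passed for the hairpin, and 0 of 9 antigens did. At an unadjusted p under 0.05, 2 of 9 antigens were found, CD37 and CD70, beside 2.79% of all symbols.

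CD37 and CD70 were lower in the hairpin library of both lines. CD37 in the hairpin library stood at 72.8% of the control in Mino and 82.9% in Z138, log2 ratios of −0.46 and −0.26. Its mean log2 ratio was −0.36 (SE 0.12, unadjusted p = 0.0168, limma adjusted p = 1.00; lower in both lines). CD70, the ligand of CD27, was at 113 and 91.2 FPKM in the Mino pair, against 173 and 135 in the Z138 pair. Its mean log2 ratio was −0.33 (SE 0.12, unadjusted p = 0.0208, limma adjusted p = 1.00; lower in both lines). In both lines CD70 fell short of a 1.5-fold difference, with log2 ratios of −0.31 and −0.36. CD24, a small glycoprotein anchored by a lipid tail, was at 58.9 and 53.4 FPKM in Mino against 5.45 and 4.73 in Z138, log2 ratios of −0.14 and −0.17. CD24 has near-identical pseudogene copies that can share its reads, so its level is uncertain.

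Within Mino, all 10 antigens were lower in the hairpin library than in the control, by small amounts. Their log2 ratios lay between −0.46 and −0.06 with a median of −0.27, and none reached 1.5-fold. Among all tested symbols 51.9% had a ratio below 0, the median ratio was −0.01 and 2.16% differed 1.5-fold in either direction. After CD37, the lowest ratio belonged to CD27, a receptor of the TNF receptor family on memory B cells, which was at 15.7 FPKM in the control and 12.3 in the hairpin library (log2 ratio −0.33). CD5, a scavenger receptor-like brake on antigen receptor signals, was at 2.33 and 1.70 FPKM (−0.30). CD52, a very short lipid-anchored peptide, was at 321 and 264 FPKM (−0.28), and CD38, an enzyme that breaks down NAD, was at 8.74 and 7.11 (−0.26). ROR1, a receptor for WNT5A expressed mainly in the embryo, was at 1.65 and 1.37 FPKM (−0.16). The least changed were MS4A1 (−0.13) and CD22 (−0.06). With 1 library per vector there is no replicate check on any of these differences.

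Within Z138 the same antigens split, and CD52 and CD22 stood out on the higher side. CD52 was at 65.3 FPKM in the control and at 121 in the hairpin library, 186% of the control, a log2 ratio of 0.88. CD22 went from 3.34 to 5.96 FPKM, 178% of the control, a log2 ratio of 0.68. These were the 2 of 10 antigens that differed by 1.5-fold in Z138, where 0.940% of all tested symbols were 1.5-fold higher and 0.819% lower. The ratio of CD52 was above that of 99.5% of tested symbols and the ratio of CD22 above that of 99.3%. MS4A1 went from 84.7 to 113 FPKM (log2 ratio 0.41) and CD38 from 27.0 to 34.7 (0.35). CD27 was at 1.11 and 1.32 FPKM (0.13), with its ligand CD70 on the lower side. CD5 was at 0.0751 and 0.0531 FPKM and ROR1 at 0.372 and 0.200, levels at which the log2(FPKM + 1) scale shows little change. In all, 5 of 10 antigens had a ratio below 0 in Z138, where 43.7% of tested symbols did. The lines thus had opposite signs for MS4A1, CD22, CD38, CD52 and CD27, each lower in the Mino hairpin library and higher in the Z138 one. That combination was found in 32.1% of tested symbols. The difference in response between lines could not be tested with 1 pair of libraries per line.

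**Figure D2:**
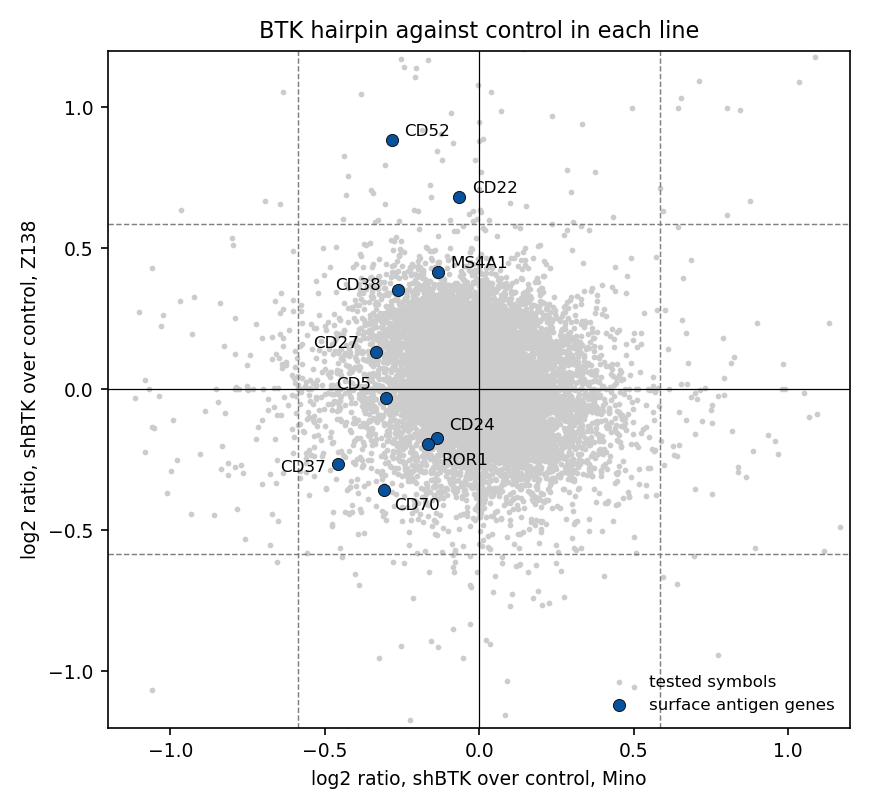
Log2 ratio of hairpin over control in Mino (horizontal) and Z138 (vertical), on log2(FPKM + 1), for the 10 antigen genes and all tested symbols (grey; 105 lie outside the axes); dashed lines mark 1.5-fold. All 10 antigens lie left of 0, and CD52 and CD22 lie above the upper dashed line.

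The promoters of CD22 and CD52 are shown because these antigens passed 1.5-fold in Z138 and were both lower in Z138 than in Mino. Of the 10 antigens, 6 matched an entry in the RefSeq table of promoters (GRCh38.p14). The 250 bases before the annotated start are given 5′ to 3′ on the gene's strand, from chr19:35328937-35329186 for CD22 and chr1:26317708-26317957 for CD52, both on the plus strand. Capitals mark matches to the motifs searched on both strands.
CD22: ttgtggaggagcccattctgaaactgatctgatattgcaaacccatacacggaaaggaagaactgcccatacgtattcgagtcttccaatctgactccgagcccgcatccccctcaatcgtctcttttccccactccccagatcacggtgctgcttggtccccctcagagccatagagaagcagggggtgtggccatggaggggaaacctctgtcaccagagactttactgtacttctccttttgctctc
CD52: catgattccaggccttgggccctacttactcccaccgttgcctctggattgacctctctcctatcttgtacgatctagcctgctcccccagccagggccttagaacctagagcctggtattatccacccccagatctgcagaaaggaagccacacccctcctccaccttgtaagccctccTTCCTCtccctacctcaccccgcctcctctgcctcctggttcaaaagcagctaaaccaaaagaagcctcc
The motifs were the octamer of POU2F1 and POU2F2 (ATGCAAAT), the PU.1 core (GAGGAA), EBF1 half-sites (CCCNNGGG), NF-kB (GGANTTTCC) and FOXO (GTAAACA). The CD52 window held 1 match, a PU.1 core on the minus strand whose first base lies 70 bases before the start. The CD22 window held none of these letter strings. Among 35116 promoters of that length, 23.6% held the PU.1 core, 17.1% the EBF1 half-sites, 2.98% the FOXO string, 1.63% the octamer and 1.45% the NF-kB string. A match describes letters and is not a bound site.

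Base composition moved with the Z138 ratios. Over the 10788 tested symbols with a transcript in GENCODE 29, the Z138 ratio had a Spearman rho of −0.56 with GC content, and the Mino ratio one of 0.11. These are relations across genes of the same libraries, which are not independent replicates. MS4A1 had a GC content of 37.9%, lower than all but 7.87% of tested symbols, and CD38 one of 42.4%. With trends on GC content and length removed, a step added after the data were seen for single lines, the Z138 log2 ratio of MS4A1 was 0.29 and that of CD38 0.24. These corrected ratios still lay above those of 95.5% and 93.2% of symbols, against 97.8% and 96.0% before the step. The corrected Z138 ratio of CD27, 0.25, lay above that of 93.8%. CD52 and CD22 lay nearer the middle, with GC contents of 52.0% and 55.2%. Their Z138 ratios after the same step were 0.95 and 0.77, both past 1.5-fold on the higher side, as were 1.00% of all symbols. After the correction the Z138 ratio of CD37 was −0.15 and that of CD70 −0.23. The Mino ratios of all 9 tested antigens remained below 0, between −0.50 and −0.10, beside 49.5% of all symbols.

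**Figure D3:**
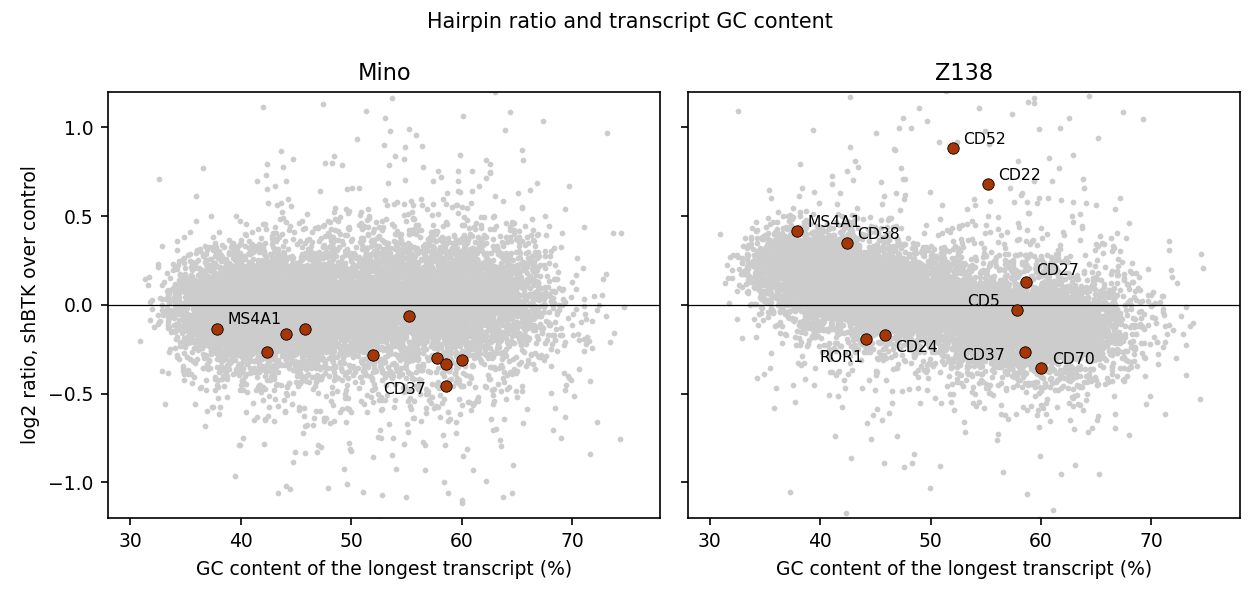
Log2 ratio of hairpin over control against the GC content of the longest transcript, in Mino (left) and Z138 (right), for the antigen genes (coloured) and all tested symbols (grey). In Z138 the grey cloud slopes down, MS4A1 and CD38 lie toward its upper side at low GC content, and CD52 and CD22 lie above it.

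Several antigens overlap other genes, and the counting is not stated to use strand. CD52 overlaps UBXN11 on the opposite strand, which was at 4.98 and 5.50 FPKM in the Z138 pair, far below CD52. TEAD2, which overlaps CD37 on the opposite strand, was at 9.93 and 6.58 FPKM in Mino against 0.200 and 0.170 in Z138, and CD37 exceeded it throughout. CD27 overlaps its antisense RNA CD27-AS1 and TAPBPL. CD27-AS1 was at 3.06 and 4.13 FPKM in Mino against 5.04 and 3.91 in Z138, above CD27 in both Z138 libraries. TAPBPL, on the same strand as CD27, was at 5.50 and 5.22 FPKM in Mino against 42.1 and 38.8 in Z138, also far above CD27 in Z138. Reads of CD27 and CD27-AS1 cannot be told apart without strand, and the rule for reads shared with TAPBPL is not stated in the labels, so the CD27 level in Z138 is uncertain. ROR1-AS1 and MIR5196, inside ROR1 and CD22, were listed at 0 in all 4 libraries.

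The second comparison set Z138 against Mino in the same limma fit, with the hairpin and control pair of each line standing in for replicates. All 9 tested antigens differed, 6 lower and 3 higher in Z138. Of all symbols 67.4% passed this test, 38.8% lower and 28.7% higher in Z138, so passing it sets no antigen apart. CD5 passed the filter on low values only through the Mino libraries, so its difference was bound to be seen. The sizes are given against all symbols. CD22 was lower in Z138 by −4.27 on the log2(FPKM + 1) scale (SE 0.18, adjusted p = 6.67e-07 in limma), a larger absolute difference than that of 99.0% of tested symbols. CD37 differed by −3.96 (SE 0.12), CD24 by −3.23 (SE 0.13) and CD27 by −2.75 (SE 0.16). In absolute size these were larger than 98.7%, 97.5% and 96.0% of symbols, in that order. CD52 differed by −1.70 (SE 0.24, adjusted p = 0.000345 in limma). That value was −2.28 between the control libraries and −1.12 between the hairpin libraries, and CD52 did not pass with a robust prior (adjusted p = 0.0949). CD5 differed by −1.49 (SE 0.14), by −3.67 (SE 0.34) with a pseudocount of 0.1 and by −0.99 (SE 0.15) after quantile normalization. Its Z138 control level was 3.23% of the Mino control level.

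Higher in Z138 were CD38 by 1.83 (SE 0.17, adjusted p = 3.34e-05 in limma), MS4A1 by 1.09 (SE 0.15, adjusted p = 0.000357) and CD70 by 0.58 (SE 0.12, adjusted p = 0.00241). In the control libraries CD38 was 3.09 times, MS4A1 1.77 times and CD70 1.53 times as high in Z138 as in Mino. The median symbol differed by −0.12 on this scale, and by 0.05 after quantile normalization. ROR1 entered only the fit without a filter on low values, where it differed by −0.96 (SE 0.08, adjusted p = 0.00128 in limma, beside 52.2% of 17650 symbols). CD70 RNA was 7.19 (control) and 7.43 (hairpin) times the level of its receptor CD27 in Mino, against 155 and 102 times in Z138, where the CD27 level is uncertain. The p-values speak of these cultures of 2 lines and not of lines in general. In bulk RNA, fewer cells bearing an antigen and less RNA per cell cannot be told apart.

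**Figure D4:**
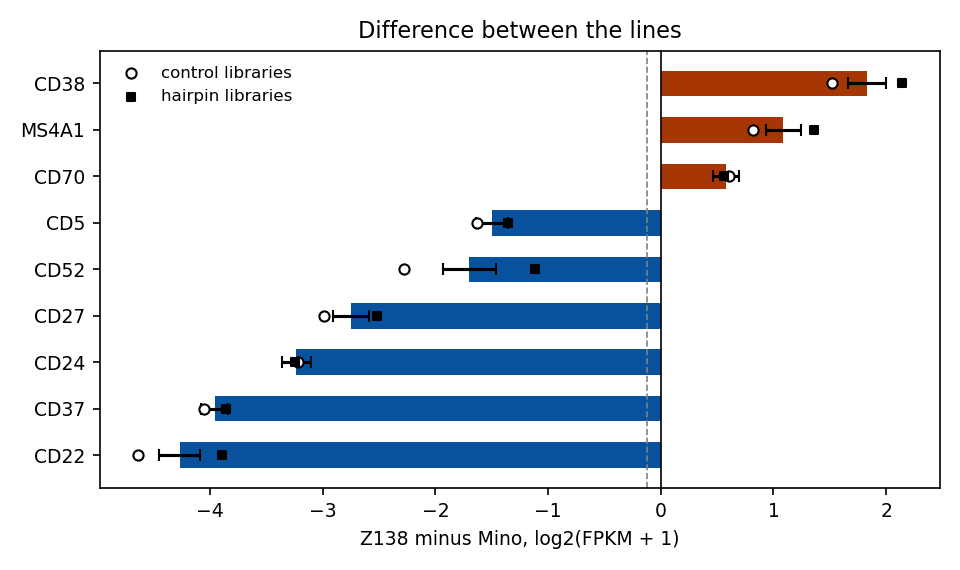
Z138 minus Mino on log2(FPKM + 1) for the 9 tested antigen genes. Bars show the limma estimate with its SE, open circles the control libraries, filled squares the hairpin libraries, and the dashed line the median of all tested symbols at −0.12. CD22 and CD37 are the lowest and CD38 the highest, and the circle and square of CD52 lie farthest apart.

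Genes that work with the antigens were then examined in lists. None of their tested members passed for the hairpin in limma. Their counts of genes higher or lower in Z138 stand beside the 28.7% and 38.8% of all tested symbols. As with CD5, 13 list genes had a mean under 1 FPKM in one line, passed the filter only through the other and were bound to differ, and all 13 are in those counts, which are thus descriptions. Tested only through Mino were IL2RA, CD80, SLAMF6, SLAMF7, CD276, CD1D, CD82, TSPAN13, TSPAN33 and TNFRSF4, and only through Z138 LAIR1, FCGR2B and PIGM. Among 10 other genes of the CD20 family, 7 were listed at 0 in all libraries and none reached 1 FPKM, the highest being MS4A7 at 0.384. As listed, MS4A1 was thus the only one of these family genes above 1 FPKM, though exact zeros can be failed estimates. Of 12 known regulators of MS4A1 transcription, all were tested, 6 were lower and 1 higher in Z138. POU2F2, an octamer-binding factor of B cells, was at 154 and 131 FPKM in Mino against 9.83 and 8.96 in Z138 (line difference −3.78, SE 0.12). POU2AF1, its coactivator, was at 53.9 and 36.7 FPKM in Mino against 53.3 in both Z138 libraries. The list's median hairpin ratios were −0.10 in Mino and 0.00 in Z138, against −0.01 and 0.03 over all symbols.

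Of 42 other B cell surface antigens, 33 were tested, of which 10 were higher and 18 lower in Z138, 8 of them tested only through 1 line. The median hairpin ratios were −0.10 in Mino and −0.03 in Z138, with 23 of 33 below 0 in Mino, beside 51.9% of all symbols, and 18 of 33 in Z138, beside 43.7%. CD276, an immune checkpoint ligand, was at 17.3 and 18.4 FPKM in Mino, and in Z138 was listed at 0 for the control and at 0.0223 for the hairpin. FCGR2B, the inhibitory Fc receptor of B cells, was at 0.140 and 0.0720 FPKM in Mino against 9.13 and 7.83 in Z138. TNFRSF17, the plasma cell antigen BCMA, was at 65.0 and 50.5 FPKM in Mino against 132 and 121 in Z138 (hairpin log2 ratio −0.24, SE 0.12, limma adjusted p = 1.00). CD180, a toll-like receptor relative, was at 1.80 and 0.903 FPKM in Mino against 2.19 and 1.97 in Z138.

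Among the tetraspanins, relatives of CD37, 13 of 15 were tested, with 7 lower and 1 higher in Z138. CD82 was at 91.7 and 87.0 FPKM in Mino against 0.304 and 0.209 in Z138. TSPAN33, which marks activated B cells, was at 82.8 and 74.2 FPKM in Mino against 0.377 and 0.316 in Z138. CD9 shared the Z138 pattern of CD52, going from 13.2 FPKM in the control to 31.7 in the hairpin library (log2 ratio 1.21), and unlike CD52 it was not lower in Mino, at 63.0 and 69.6. Its mean hairpin ratio of 0.67 (SE 0.22, limma adjusted p = 1.00) did not pass.

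Around CD22, 8 of 15 siglecs and partners were tested, with 5 lower and 1 higher in Z138. All 8 had a hairpin ratio below 0 in Mino, beside 51.9% of all symbols, and 7 in Z138, beside 43.7%. Their median hairpin ratio was −0.11 in each line. SIGLEC10, a receptor for CD24, was at 21.0 and 20.3 FPKM in Mino against 6.37 and 4.84 in Z138. ST6GAL1, which builds the sialic acid ligand of CD22, was at 61.5 and 51.7 FPKM in Mino against 47.3 and 44.7 in Z138. Around CD27 and CD70, 8 of 12 genes were tested, with 6 lower and none higher in Z138. TNFRSF18 (GITR) was at 74.6 and 52.6 FPKM in Mino against 48.5 and 37.9 in Z138, a hairpin log2 ratio of −0.42 (SE 0.12, limma adjusted p = 1.00). TNFSF9, the 4-1BB ligand, was at 22.7 and 17.2 FPKM in Mino against 12.9 and 10.6 in Z138 (−0.31, SE 0.13, adjusted p = 1.00). Like CD70, both were lower in the hairpin library of both lines. They were named for the lowest hairpin p of the list, which favours genes that move alike in both lines. Of the 8 tested genes around CD27 and CD70, 4 had a ratio below 0 in Mino, beside 51.9% of all symbols, and 7 in Z138, beside 43.7%. The median hairpin ratios were −0.002 in Mino and −0.19 in Z138. With GC and length trends removed, the Z138 median of this list was −0.07. The Z138 ratios of TNFRSF18 and TNFSF9 were then −0.23 and −0.14.

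For CD38, 6 of 10 genes of the NAD and adenosine group were tested, with 4 lower and 1 higher in Z138. ADA, which removes adenosine, was at 172 and 185 FPKM in Mino against 35.5 and 34.8 in Z138, the opposite direction to CD38. For CD5, 4 of 10 genes were tested, with 3 lower and none higher in Z138, among them the ubiquitin ligase gene CBL at 13.8 and 12.3 FPKM in Mino and 1.92 and 2.18 in Z138. For ROR1, 19 of 24 genes of noncanonical WNT signalling were tested, with 12 lower and 3 higher in Z138. PTK7, a WNT co-receptor, was at 19.2 and 21.3 FPKM in Mino against 3.50 and 3.20 in Z138. WNT5A itself was between 0.00398 and 0.347 FPKM, while WNT5B of the same list was at 17.4 and 17.5 FPKM in Mino against 22.3 and 26.1 in Z138.

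Complement regulators, which protect cells from antibodies that act through complement, gave 3 of 7 tested genes. CD55 was at 6.28 and 5.70 FPKM in Mino against 23.4 and 25.1 in Z138, CD46 at 11.9 and 11.2 and at 16.0 and 17.1, and CD59 at 10.6 and 10.9 and at 3.27 and 3.04. CD55 and CD46 were thus higher and CD59 lower in Z138, and their hairpin log2 ratios lay between −0.12 and 0.10. CD52 and CD24 are held by a GPI anchor. Of 27 genes of its synthesis, 26 were tested, with median hairpin ratios of 0.13 in Mino and −0.06 in Z138. In Z138, 7 were higher and 8 lower than in Mino. PIGM, the first mannosyltransferase of the pathway, was at 0.124 and 0.118 FPKM in Mino against 6.89 and 8.56 in Z138.

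The genes nearest to each antigen in pattern were sought among 7782 symbols with a mean of 5 FPKM or more. The measure was the Euclidean distance between log2(FPKM + 1) values centred on their mean over the 4 libraries, so it is a description over 4 points. The nearest to MS4A1 were PRDM15 (distance 0.03) and WDR43 (0.06), and among those of CD37 was BASP1 (0.12). For CD27 they were PIM1 (0.07) and PKIG (0.09), and among those of CD70 was HYAL2 (0.09). CD24 lay nearest SH3BP1 (0.06) and GSTM1 (0.14), CD5 nearest POLD4 (0.05) and PPP1R15A (0.06), and CD38 nearest NOP14 (0.14) and GCSH (0.17). This scale shrinks differences of low genes, so a small distance need not mean a similar fold difference. CD5 had 2.33 FPKM in the control of Mino and 0.0751 in that of Z138, but POLD4 44.9 and 14.4 and PPP1R15A 161 and 50.9. The same libraries held 11.7 and 0.191 FPKM of GSTM1, beside 58.9 and 5.45 of CD24. SH3BP1 was closer to CD24 in this respect, at 87.3 and 8.04. CD22 and CD52 had the most distant neighbours, TESC (0.31) and FAM3B (0.39) for CD22 and OGFRL1 (0.23) and DOCK10 (0.34) for CD52. DOCK10 was at 19.5 and 15.4 FPKM in Mino against 3.29 and 4.91 in Z138.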

How the data were processed

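RNA of 4 cultures was sequenced from Illumina TruSeq libraries after column extraction, per the labels' protocols. The authors deposited FPKM values, 1 column per library, per the file headers. TopHat and hg19 are named in the submitters' processing notes. How alignments became FPKM is not stated there, and the depth is unknown. Exact zeros can be failed estimates: CSNK2B, a gene most cells use, was listed at 0 in all 4 libraries.

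Values were analysed as log2(FPKM + 1), which understates changes of low genes. limma 3.58.1 in R 4.3.3 (mean-variance trend) fitted line and hairpin over the 11484 symbols averaging 1 FPKM or more, with Benjamini-Hochberg adjustment at 0.05. The cell line paired the libraries. Single lines were described by size (1.5-fold), without a test. Promoters came from RefSeq (GRCh38.p14), and GC content, length and overlaps from GENCODE 29 (GRCh38), which covered 93.9% of tested symbols. The fit and the trend removal were tested on simulated data. The planted hairpin effects were larger than the antigens' mean ratios, so that run does not show whether differences of their size would be found. Alternatives in pseudocount, filter, scaling, prior and terms are given in the closing section. Named genes were all 10 antigens, BTK, the 2 genes of each list with the lowest hairpin p and the next 2 by line p (not all are printed), and the 2 nearest symbols per antigen (some are not reported here). CCND1, SOX11, CSNK2B and overlapping genes were added after their values were seen, as were FCER2, MS4A7, WNT5A and the list genes tested only through 1 line. The same holds for WNT5B, CD74 and the single T cell markers. The antigens and lists were chosen with earlier results of these data known.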

Additional observations from a re-analysis of the deposited data

Results flagged for a closer look

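For 5 antigens the hairpin ratio had opposite signs in the lines, and with 1 pair of libraries per line the difference was not tested. The Z138 log2 ratio exceeded the Mino one by 1.17 for CD52, 0.74 for CD22, 0.61 for CD38, 0.55 for MS4A1 and 0.47 for CD27. With a single pair per line, opposite signs are common: 32.1% of tested symbols were lower in the Mino and higher in the Z138 hairpin library. With GC and length trends removed, the Z138 log2 ratios were 0.95 for CD52, 0.77 for CD22, 0.29 for MS4A1, 0.24 for CD38 and 0.25 for CD27, and the Mino ratios of all 5 stayed below 0.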

How the results depend on the processing

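Under every alternative test run (pseudocount, filter, zeros, scaling, prior, block, GC and length trends), 0 tested antigens passed for the hairpin, with adjusted p-values of 0.781 or more in limma. The count of all symbols passing, 14, became 9 with a filter at 5 FPKM, 2 without a filter, 28 with symbols above 0 in all 4 libraries, 7 with quantile normalization, 25 with a robust prior and 7 with the GC and length trends removed. With no replicate block, that is without the line that pairs the libraries, it was 0. BTK did not pass without the filter (adjusted p = 0.101) or without the block (adjusted p = 1.00). The antigens' line differences kept their direction in all 89 values under an alternative, and only CD52 lost its call, with a robust prior. The causes were not tested. Leaving out a library leaves no residual degrees of freedom, so only ratios of single lines or vectors remain. Unknown depth limits what can be said of CD5 and ROR1 in Z138, whose levels were below 1 FPKM.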

Other observations

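FCER2 (CD23), the antigen that helps to tell mantle cell lymphoma from chronic lymphocytic leukaemia, was at 4.27 (control) and 7.53 FPKM (hairpin) in Mino (log2 ratio 0.70). The Z138 pair held 42.3 and 27.8 FPKM (log2 ratio −0.59), so its signs were the reverse of those of CD52 and CD22. PTPRC (CD45), the phosphatase on which CD22 can bind, was at 40.0 and 32.3 FPKM in Mino against 16.4 and 29.1 in Z138, log2 ratios of −0.30 and 0.79, the same signs as CD52. With GC and length trends removed, the Z138 ratios were −0.47 for FCER2 and 0.64 for PTPRC. SLAMF7, the target of elotuzumab, was at 5.53 and 2.68 FPKM in Mino against 0.306 and 0.451 in Z138. These 3 genes were chosen after their values were seen, and none passed for the hairpin in limma.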
